A study of Mus musculus with 6 samples.

Results

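Respiratory complex I was examined through its nuclear genes, chosen as the protein-coding rows whose symbol is Nduf followed by a, b, c, s, v, ab or af and a number. The rule found 44 genes among the 43346 listed, of which 22032 were protein-coding: 37 subunits and 7 assembly factors (Ndufaf genes), spread over 16 chromosomes. RNA came from the gastrocnemius, a calf muscle, of male mice aged 6 months, sequenced after poly(A) selection with 1 library per mouse. The VDR_KO group was 3 Vdrfl/fl actin iCre mice given tamoxifen at 100 mg/kg for 5 days, in 75 microliters of 10% ethanol in corn oil. The VEH_CONT group was 3 mice of the same genotype given the ethanol and corn oil alone. Both groups thus carried the allele with loxP sites around exon 3 of Vdr, which encodes the vitamin D receptor, together with the transgene Tg(ACTA1-cre/Esr1*)2Kesr, a tamoxifen-activated Cre under a skeletal muscle actin promoter. Both ate a diet with 0.81% calcium and 3.4 IU/g vitamin D3, and muscle was taken once glucose and strength testing, done 10 days after the last injection, was complete. Tamoxifen and loss of the receptor cannot be told apart in this contrast, and mice given tamoxifen without Cre were not analysed here.

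The libraries held 30486874 to 39909535 counted reads. VDR_KO replicate 2 had the fewest, and its 10 most abundant genes took 15.1% of its reads, against 20.8% to 25.2% in the other 5 libraries. Skeletal muscle markers (Acta1, Ckm, Mb, Des and Ttn) were high in every library, with summed levels of 53479 to 67676 CPM, the read counts scaled to a common library size. Vdr had 52, 27 and 40 reads in the VDR_KO libraries and 46, 48 and 61 reads in the VEH_CONT libraries. Its log2 fold change was -0.37 (SE 0.37; edgeR adjusted p = 0.848), and counts over the whole gene do not show whether exon 3 was lost. The 37 listed genes of the mitochondrial chromosome, 7 of them complex I subunits, had 0 reads in every library, so the mitochondrially encoded subunits were not examined.

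Complex I takes electrons from NADH, passes them along a flavin and a chain of iron-sulfur clusters to ubiquinone, and pumps protons across the inner mitochondrial membrane. Its matrix arm holds the N module, where NADH is oxidised, and the Q module, where ubiquinone is reduced. The membrane arm holds the proton-pumping subunits, which mitochondrial DNA encodes, surrounded by nuclear-encoded accessory subunits. Assembly factors help to build the complex and are not part of the finished enzyme. In skeletal muscle, oxidative fibres hold more mitochondria, and so more complex I, than fast glycolytic fibres do.

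The genes are transcribed from separate promoters. Start regions (250 bases before to 50 after the start, RefSeq, GRCm38.p6) of 39 of the 44 genes were used. The rest were not searched, which does not mean that each lacked a region. The 39 regions were searched on both strands for motifs of factors that are known to act on nuclear genes for mitochondrial proteins. The NRF1 motif was found in 5 of the 39 regions (12.8%), and the YY1 letters (AAGATGGCG) also in 5. The background was the 27025 regions of the same length that were kept for the search, which are not every start region of the genome. Of these, 2.36% held the NRF1 motif and 1.49% the YY1 letters. NRF1 matches stood in Ndufa6, Ndufa11, Ndufb4, Ndufaf4 and Ndufaf5. YY1 letters stood in Ndufa9, Ndufc1, Ndufs4, Ndufs6 and Ndufs7, each time between 22 and 35 bases after the start. The GABP letters (CCGGAAGT) were found in 1 of the 39 regions (2.56%), that of Ndufs3, against 1081 of all 27025 regions, and the ERR letters (TCAAGGTCA) in 0 of the 39, against 0.407%. No matches of different motifs overlapped. An example or a pair of examples of each motif found is printed, so that the matched letters and their place relative to the start can be read. The examples are Ndufa11 (chr17:56717512-56717811, plus strand), with the match 60 bases before the start, Ndufaf4 (chr4:24897833-24898132, plus strand), 113 bases before it, Ndufs7 (chr10:80249199-80249498, plus strand), 24 bases after it, and Ndufs3 (chr2:90904672-90904971, minus strand), at the start and on the opposite strand. Capitals mark the matched letters, which in the NRF1 examples (Ndufa11 and Ndufaf4) read the same on both strands, and a match is a description of the sequence, not evidence of binding.
Ndufa11: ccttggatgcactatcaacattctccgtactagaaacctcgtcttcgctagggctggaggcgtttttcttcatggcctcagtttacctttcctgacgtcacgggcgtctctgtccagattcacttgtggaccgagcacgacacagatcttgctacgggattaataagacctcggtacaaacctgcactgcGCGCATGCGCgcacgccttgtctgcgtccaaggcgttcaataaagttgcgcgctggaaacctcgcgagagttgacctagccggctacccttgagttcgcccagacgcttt
Ndufaf4: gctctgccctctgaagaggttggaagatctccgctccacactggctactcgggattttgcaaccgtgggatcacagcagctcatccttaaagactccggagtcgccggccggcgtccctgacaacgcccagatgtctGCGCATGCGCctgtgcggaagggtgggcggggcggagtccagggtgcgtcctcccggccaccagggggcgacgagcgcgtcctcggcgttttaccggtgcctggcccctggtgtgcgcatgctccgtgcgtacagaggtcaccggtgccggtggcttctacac
Ndufs7: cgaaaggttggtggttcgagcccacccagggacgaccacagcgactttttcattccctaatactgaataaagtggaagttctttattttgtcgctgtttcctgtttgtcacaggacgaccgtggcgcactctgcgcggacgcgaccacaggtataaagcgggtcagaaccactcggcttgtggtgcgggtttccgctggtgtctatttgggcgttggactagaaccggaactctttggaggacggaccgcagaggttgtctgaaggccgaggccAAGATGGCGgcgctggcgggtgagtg
Ndufs3: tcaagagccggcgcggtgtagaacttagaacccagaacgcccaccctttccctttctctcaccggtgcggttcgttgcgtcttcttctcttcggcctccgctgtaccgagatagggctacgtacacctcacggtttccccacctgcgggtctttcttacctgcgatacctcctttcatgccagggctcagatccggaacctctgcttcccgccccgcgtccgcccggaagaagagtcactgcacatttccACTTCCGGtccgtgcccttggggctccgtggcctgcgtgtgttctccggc

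All 44 genes passed the filter on low counts, each with at least 349 reads in every library. Estimated levels of 33 of the 37 subunits were higher in VDR_KO than in VEH_CONT muscle, but by amounts within the error of the estimates. With DESeq2 size factors 31 were higher. At an adjusted p of 0.05 over all 15583 genes tested, edgeR called 0 subunits and 0 assembly factors, against a background of 0% of all genes. DESeq2 and limma-voom also called 0 of the 44. The background of 0% is that of edgeR alone. DESeq2 did call genes outside the 44, and their count is given with the dependence on processing below. The median log2 fold change of the subunits was 0.16 (range -0.14 to 0.44), and that of all genes tested was 0.02. Estimates above 0 made up 52.9% of all genes. Because the subunits moved together from library to library, as described below, their 37 estimates are not 37 separate observations. In bulk muscle, a difference in the number of mitochondria-rich cells and a difference in RNA per cell cannot be told apart.

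No subunit reached an unadjusted p of 0.05, which 4.02% of all genes did in the higher direction and 3.42% in the lower. The smallest unadjusted p among subunits was 0.111, with an edgeR adjusted p of 0.730. Standard errors of the subunits ran from 0.21 to 0.28 on the log2 scale. All 37 of their 95% intervals held 0, and 35 lay within -1 to 1, so for those 35 genes a change beyond 2-fold falls outside the interval. The upper bounds of the other subunits, Ndufa11 and Ndufb3, were 1.02 and 1.03. Groups did not overlap for 1 of the 37 subunits (2.70%), with VDR_KO above. Among all genes tested, 5.83% did not overlap with VDR_KO above and 6.48% with VDR_KO below.

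**Figure D1:**
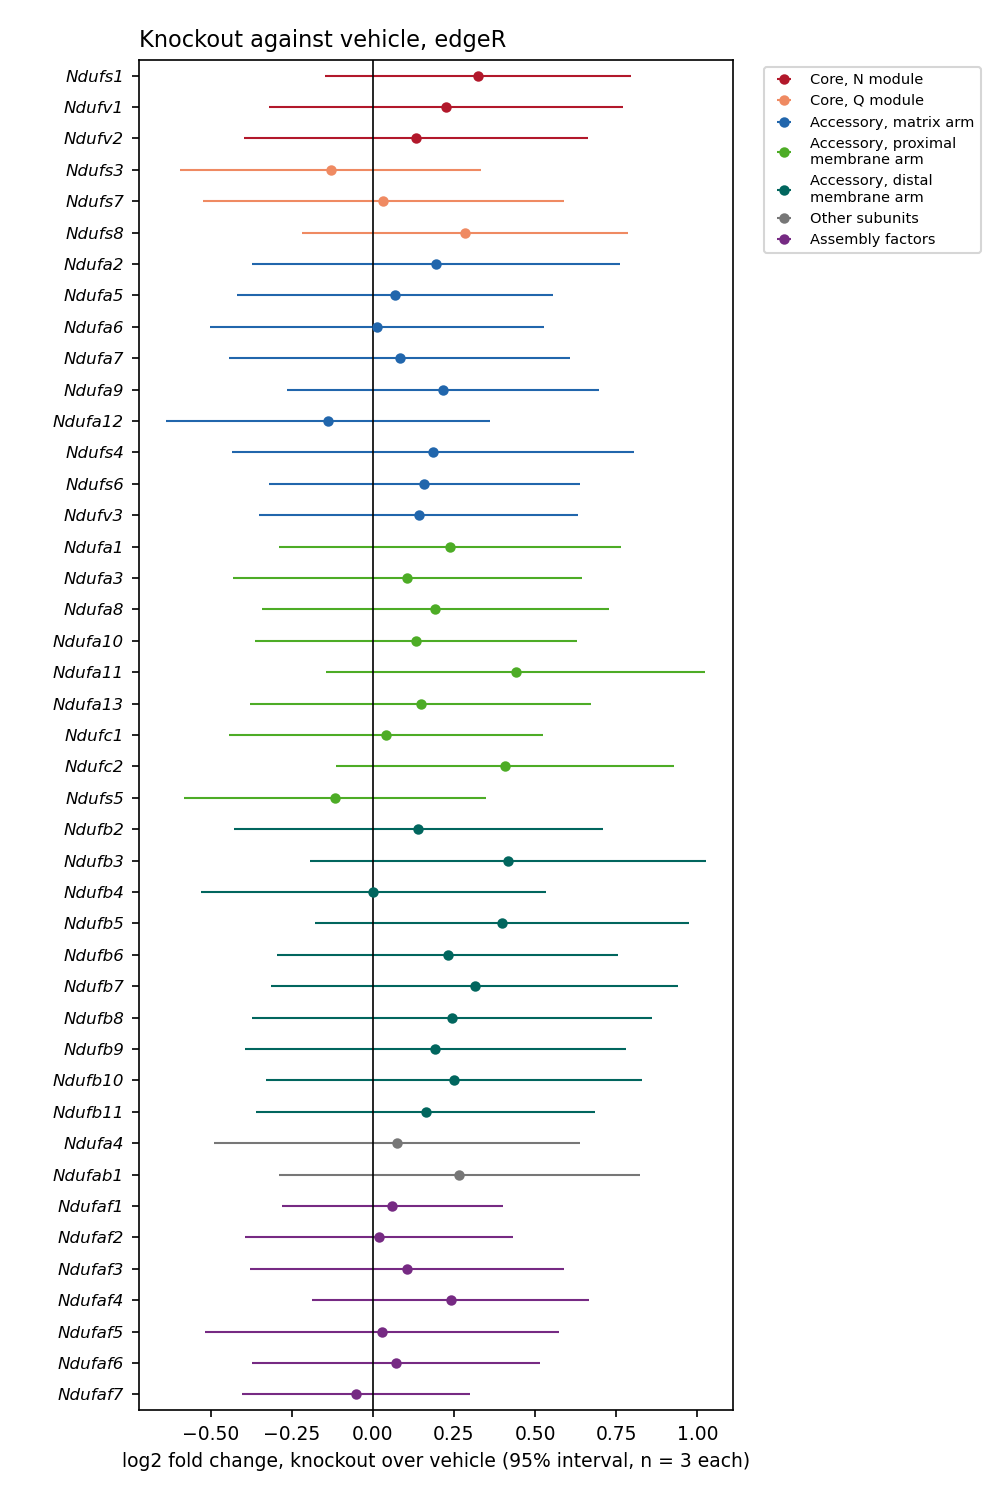
Log2 fold change of VDR_KO over VEH_CONT (x axis) with its 95% interval for the complex I genes reported (y axis), by module, from edgeR with 3 mice a group. Knockout is VDR_KO and vehicle is VEH_CONT; most points lie to the right of 0, and every interval crosses 0.

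The N module core subunits, which carry the NADH site and the first electron carriers, had higher estimates in 3 of 3 cases (median log2 fold change 0.23). Ndufs1, the largest subunit and a carrier of iron-sulfur clusters, had 769.5, 716 and 705 CPM in VDR_KO libraries, against 695, 539.8 and 515 CPM in VEH_CONT libraries. Every VDR_KO library was above every VEH_CONT library, which was so for no other subunit. Means were 730.3 ± 34.4 CPM in VDR_KO and 583 ± 97.4 CPM in VEH_CONT (SD, n = 3 each), a log2 fold change of 0.32 (SE 0.21; edgeR adjusted p = 0.753). The estimate stayed above 0 under all 17 alternatives, between 0.24 and 0.47 when 1 library was left out. The Ndufs1 gene span overlaps that of Eef1b2, which had 6267 to 8797 reads a library beside the 19698 to 26463 of Ndufs1. Since it is not known whether strand was used in counting, the division of reads between overlapping genes is uncertain. Of the 44 genes, 14 overlap another listed gene, and for 7 the neighbour had at least 10% of the member's reads: Ndufs1, Ndufs3, Ndufb2, Ndufb5, Ndufb6, Ndufb8 and Ndufaf3. The largest shares among subunits were those of Adck2 beside Ndufb2 (2649 to 4848 reads, against 3511 to 6183 for Ndufb2) and Gm20538 beside Ndufb8 (4963 to 9435 reads, against 9927 to 19617 for Ndufb8).

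Ndufv1, which binds NADH and the flavin, had 548, 625 and 497 CPM in VDR_KO libraries, against 623, 369 and 434 CPM in VEH_CONT libraries. The groups overlapped, since VEH_CONT replicate 1 was about level with the highest VDR_KO library (log2 fold change 0.23, SE 0.24; edgeR adjusted p = 0.859). Ndufv2, another iron-sulfur subunit, had 396, 536 and 343 CPM in VDR_KO libraries and 400.0, 317 and 445 CPM in VEH_CONT libraries. Its groups also overlapped, with VDR_KO replicate 2 highest and VEH_CONT replicate 2 lowest (log2 fold change 0.13, SE 0.24).

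The Q module core subunits described here did not share a direction. Ndufs8, which carries iron-sulfur clusters of the chain to ubiquinone, had 202, 270.3 and 171 CPM in VDR_KO libraries, against 204, 144 and 181 CPM in VEH_CONT libraries. VDR_KO replicate 2 was the high library and VEH_CONT replicate 2 the low one, while the other 4 lay close together (log2 fold change 0.28, SE 0.22; edgeR adjusted p = 0.796). Ndufs7, which helps to form the ubiquinone pocket, had 214, 246 and 169 CPM in VDR_KO libraries and 271, 151 and 192 CPM in VEH_CONT libraries. Here the highest and the lowest library were both VEH_CONT (log2 fold change 0.03, SE 0.25).

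Ndufs3, a structural core subunit of the Q module, had 218, 237 and 192 CPM in VDR_KO libraries, against 247, 183 and 278 CPM in VEH_CONT libraries. Its estimate was below 0, and VEH_CONT held both its highest and its lowest library (log2 fold change -0.13, SE 0.21; edgeR adjusted p = 0.910).

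The accessory subunits of the membrane arm had higher estimates in 18 of 19 cases. All 10 Ndufb genes, on the distal part of that arm, had estimates of at least 0.00, with a median log2 fold change of 0.24. Of the 9 accessory subunits of the proximal part, 8 had higher estimates (median 0.15). Differences between modules were not tested, and both medians stood beside 0.02 for all genes. Ndufb3 had 193, 331 and 175 CPM in VDR_KO libraries, against 199.9, 136 and 188 CPM in VEH_CONT libraries. Ndufb5 had 475, 677 and 422 CPM in VDR_KO libraries, against 459.9, 300.5 and 433 CPM in VEH_CONT libraries. In both genes VDR_KO replicate 2 stood far above the rest, and VDR_KO replicate 3 was below at least 2 VEH_CONT libraries. The log2 fold changes were 0.42 (SE 0.27) for Ndufb3 and 0.40 (SE 0.26) for Ndufb5, with edgeR adjusted p values of 0.753 and 0.752. At the other end of the Ndufb genes, Ndufb4 had 106, 140.0 and 81.1 CPM in VDR_KO libraries and 97.7, 93.3 and 136 CPM in VEH_CONT libraries (log2 fold change 0.00, SE 0.24).

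Ndufc2 had the smallest p among the subunits. Its levels were 89.9, 139 and 80.6 CPM in VDR_KO libraries, against 87.2, 63.6 and 82.3 CPM in VEH_CONT libraries. The means, 103 ± 31.2 CPM in VDR_KO and 77.7 ± 12.4 CPM in VEH_CONT (SD, n = 3 each), gave a log2 fold change of 0.41 (SE 0.23; edgeR adjusted p = 0.730). The groups overlapped, and VDR_KO replicate 3 was below 2 of the 3 VEH_CONT libraries. Ndufa11, which sits where complex I meets complex III in respiratory supercomplexes, had the largest estimate. It had 192, 306 and 162 CPM in VDR_KO libraries, against 189.7, 131 and 166 CPM in VEH_CONT libraries (log2 fold change 0.44, SE 0.26; edgeR adjusted p = 0.735). Without VDR_KO replicate 2, the log2 fold change was 0.13 for Ndufc2 and 0.13 for Ndufa11.

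Ndufs5, on the intermembrane side of the proximal membrane arm, had an estimate below 0. Its levels were 146, 159.7 and 108 CPM in VDR_KO libraries, against 164, 122 and 161 CPM in VEH_CONT libraries (log2 fold change -0.12, SE 0.21; edgeR adjusted p = 0.923). VDR_KO replicate 3 was lowest, VEH_CONT replicate 1 was highest, and the groups overlapped.

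Accessory subunits of the matrix arm had higher estimates in 8 of 9 cases (median log2 fold change 0.14, range -0.14 to 0.22). The exception was Ndufa12, an N module subunit added late in assembly, with 132, 146 and 112 CPM in VDR_KO libraries and 127, 114 and 189 CPM in VEH_CONT libraries. VEH_CONT replicate 3 alone was above all VDR_KO libraries, and the other 5 lay together (log2 fold change -0.14, SE 0.22; edgeR adjusted p = 0.910). Ndufs4, chosen after its values were seen because its standard error of 0.28 was among the widest, has a mouse knockout with a Leigh-like brain disease. It had 324, 493 and 259 CPM in VDR_KO libraries, against 322, 243 and 380.4 CPM in VEH_CONT libraries (log2 fold change 0.19). Its groups overlapped almost entirely apart from VDR_KO replicate 2.

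The gene-name rule also takes in genes whose products are not only in complex I. Ndufa4, later assigned to cytochrome c oxidase (complex IV), had 830.0, 1139 and 701 CPM in VDR_KO libraries, against 792, 751 and 994 CPM in VEH_CONT libraries. The groups overlapped, with VDR_KO at both ends (log2 fold change 0.07, SE 0.25; edgeR adjusted p = 0.966). Ndufab1, the mitochondrial acyl carrier protein, which also serves fatty acid synthesis, had 122, 179 and 109 CPM in VDR_KO libraries and 135, 82.9 and 123 CPM in VEH_CONT libraries (log2 fold change 0.27, SE 0.25). It too was highest in VDR_KO replicate 2 and lowest in VEH_CONT replicate 2.

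The assembly factors varied less between libraries than the subunits at the median, but the ranges overlapped. The root mean square of a gene's deviations from its own mean was 0.21 at the median (range 0.10 to 0.30) for assembly factors. For subunits it was 0.27 (range 0.19 to 0.39). Of the 7, 6 had higher estimates, with a median log2 fold change of 0.06 (range -0.05 to 0.24), and the groups overlapped in all 7. All 7 of their 95% intervals held 0 and lay between -0.52 and 0.67. Ndufaf4, which works with Ndufaf3 on the Q module, had 44.0, 58.6 and 43.3 CPM in VDR_KO libraries, against 37.0, 37.2 and 49.3 CPM in VEH_CONT libraries. VEH_CONT replicate 3 lay between the VDR_KO values, and the log2 fold change was 0.24 (SE 0.19; edgeR adjusted p = 0.797). Its estimate was above 0 under all 17 alternatives, between 0.08 and 0.39 when 1 library was left out. Ndufaf3 had 13.2, 16.2 and 12.2 CPM in VDR_KO libraries, against 14.2, 9.56 and 14.8 CPM in VEH_CONT libraries (log2 fold change 0.11, SE 0.22; edgeR adjusted p = 0.935), and VEH_CONT held its lowest library. Its 349 to 567 reads a library are less certain than those of the others, because its span overlaps that of Impdh2, which had 1405 to 2369 reads.

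Ndufaf1, part of the membrane-bound assembly complex that builds the membrane arm, had 43.5, 45.9 and 39.1 CPM in VDR_KO libraries, against 42.0, 37.4 and 43.8 CPM in VEH_CONT libraries. The means were 42.8 ± 3.43 CPM in VDR_KO and 41.1 ± 3.29 CPM in VEH_CONT (SD, n = 3 each), a log2 fold change of 0.06 (SE 0.15) with an interval among the narrowest. Ndufaf2, a relative of Ndufa12 that acts late in assembly, had 12.04, 13.8 and 12.05 CPM in VDR_KO libraries, against 13.3, 10.3 and 13.9 CPM in VEH_CONT libraries. Its groups overlapped at almost equal means, with a log2 fold change of 0.02 (SE 0.18).

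Ndufaf5, which hydroxylates an arginine of Ndufs7, had 56.2, 79.1 and 48.8 CPM in VDR_KO libraries, against 46.9, 55.0 and 78.5 CPM in VEH_CONT libraries. Each group had 1 high library at nearly the same level (log2 fold change 0.03, SE 0.24). Ndufaf6, an early assembly factor, had 22.6, 18.8 and 15.9 CPM in VDR_KO libraries and 16.01, 16.4 and 22.0 CPM in VEH_CONT libraries (log2 fold change 0.07, SE 0.20). Ndufaf7, a methyltransferase that acts on the Q module, had 23.6, 22.9 and 20.3 CPM in VDR_KO libraries, against 22.4, 21.0 and 25.8 CPM in VEH_CONT libraries. It was the assembly factor with an estimate below 0 (log2 fold change -0.05, SE 0.16), and its groups overlapped. The edgeR adjusted p values of Ndufaf1, Ndufaf2, Ndufaf5, Ndufaf6 and Ndufaf7 ran between 0.951 and 0.989.

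**Figure D2:**
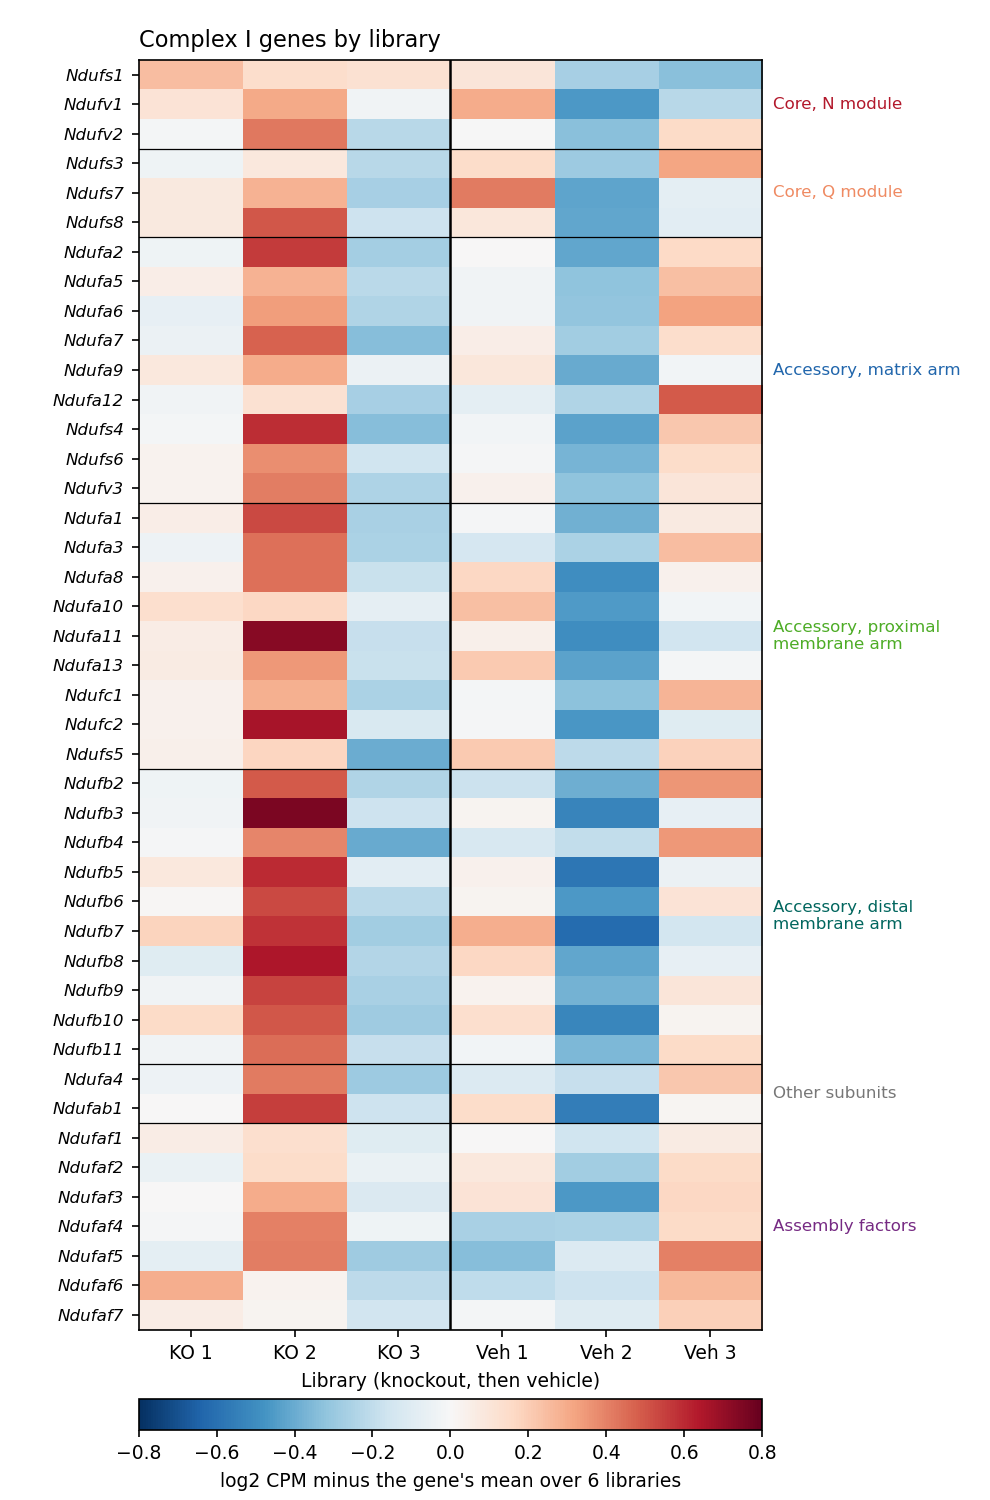
Log2 CPM of the complex I genes reported in each of the 6 libraries, relative to that gene's mean over the 6, with the 3 VDR_KO libraries (KO) left of the 3 VEH_CONT libraries (Veh). VDR_KO replicate 2 is the high column and VEH_CONT replicate 2 the low column for most subunits.

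What the subunits shared was a pattern across libraries that did not follow the groups. Relative to each gene's mean over the 6 libraries, the mean log2 CPM of the 37 subunits was 0.032, 0.412 and -0.212 in VDR_KO replicates 1, 2 and 3, against 0.0652, -0.383 and 0.0859 in VEH_CONT replicates 1, 2 and 3. VDR_KO replicate 2 was the highest library for 30 of the 37 subunits, and VEH_CONT replicate 2 was the lowest for 30. Shares of all genes highest in VDR_KO replicate 2 or lowest in VEH_CONT replicate 2 were not counted. The pattern is therefore not shown to be particular to complex I. The other 2 VDR_KO and 2 VEH_CONT libraries overlapped, and VDR_KO replicate 3 was below both VEH_CONT replicates 1 and 3. The group means were 0.08 ± 0.31 in VDR_KO and -0.08 ± 0.27 in VEH_CONT (SD, n = 3 each). The 44 genes together took 1.06%, 1.65% and 1.05% of the reads in VDR_KO libraries, against 1.14%, 0.859% and 1.13% in VEH_CONT libraries.

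Single subunits followed this pattern closely. The root mean square of a subunit's own deviations was 0.27 at the median, and that of its distance from the subunit mean was 0.12. Ndufv3, a small subunit of the N module, followed the mean most closely (distance 0.03), with 201, 262 and 166 CPM in VDR_KO libraries and 202, 157 and 211 CPM in VEH_CONT libraries. Ndufs6, a zinc-binding subunit of the matrix arm, came next (distance 0.05), with 199, 253 and 175 CPM in VDR_KO libraries and 194, 151 and 216 CPM in VEH_CONT libraries. Ndufs1 followed it least (distance 0.26): it was highest in VDR_KO replicate 1 and the sole subunit lowest in VEH_CONT replicate 3. Assembly factors were highest in VDR_KO replicate 2 in 4 of 7 cases and lowest in VEH_CONT replicate 2 in 3 of 7, and their mean profile was flatter, 0.0389, 0.205 and -0.135 in VDR_KO and -0.0878, -0.219 and 0.198 in VEH_CONT replicates 1 to 3.

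Nuclear-encoded subunits of complexes II to V, from a list of 40, had nearly the same library profile, 0.0172, 0.518 and -0.169 in VDR_KO and 0.0514, -0.428 and 0.0109 in VEH_CONT replicates 1 to 3. Of these, 38 had higher estimates (median log2 fold change 0.28), and edgeR called 0, with 0 under an unadjusted p of 0.05. By complex, the medians were 0.28 for complex II, 0.30 for complex III, 0.32 for complex IV and 0.19 for ATP synthase, beside 0.16 for the complex I subunits. The difference between complex I and the other complexes was not tested.

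Markers of fibre type and of other cell types also varied between libraries, in patterns that matched that of complex I only in places. Of 10 slow-twitch fibre markers, 10 had higher estimates in VDR_KO (median log2 fold change 1.90), and their summed level was 6201, 32826 and 10352 CPM in VDR_KO libraries, against 10164, 1483 and 1233 CPM in VEH_CONT libraries. VDR_KO replicate 2 was thus highest for slow-twitch markers as well as for complex I. The lists did not follow each other everywhere, since VEH_CONT replicate 3 had the lowest slow-twitch sum and a complex I mean above 0. Of 10 fast-twitch markers, 0 had higher estimates (median -0.43), and they summed to 205318, 80363 and 142579.6 CPM in VDR_KO libraries and 169890.3, 199599 and 195385 CPM in VEH_CONT libraries. Macrophage markers (9 of 9 higher) summed to 47.3, 147 and 139 CPM in VDR_KO and 66.6, 55.6 and 39.6 CPM in VEH_CONT. Adipocyte markers (8 of 8 higher) summed to 3478, 4476 and 3888 CPM in VDR_KO and 2992, 2833 and 3360 CPM in VEH_CONT. That sum is mostly Car3, which muscle also expresses, and 0 of the 8 genes separated the groups. Their mean log2 CPM, relative to the 6 libraries, was 0.756, 1.14 and -0.286 in VDR_KO replicates 1, 2 and 3, against -0.215, -0.177 and -1.22 in VEH_CONT replicates 1, 2 and 3, so the groups overlapped. Fibroblast markers (5 of 5 higher) summed to 413, 1146 and 881 CPM in VDR_KO and 565, 613 and 453 CPM in VEH_CONT. Endothelial markers summed to 217 to 245 CPM in VDR_KO libraries, with VEH_CONT libraries on both sides of that range, and erythroid markers to 531 to 3184 CPM in VDR_KO and 604 to 3605 CPM in VEH_CONT. Erythroid markers were highest in VEH_CONT replicate 2 (3605 CPM), where complex I was lowest. They were next highest in VDR_KO replicate 2 (3184 CPM), where complex I was highest. VDR_KO replicate 3 had macrophage markers nearly as high as VDR_KO replicate 2 and the lowest complex I mean of its group. No detected marker of these lists was at 0 in any library. A covariate was fitted for the slow-twitch list alone. That list was itself higher on average in VDR_KO, so the fit cannot separate it from the group. The part of these markers in the complex I estimates was therefore not tested.

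**Figure D3:**
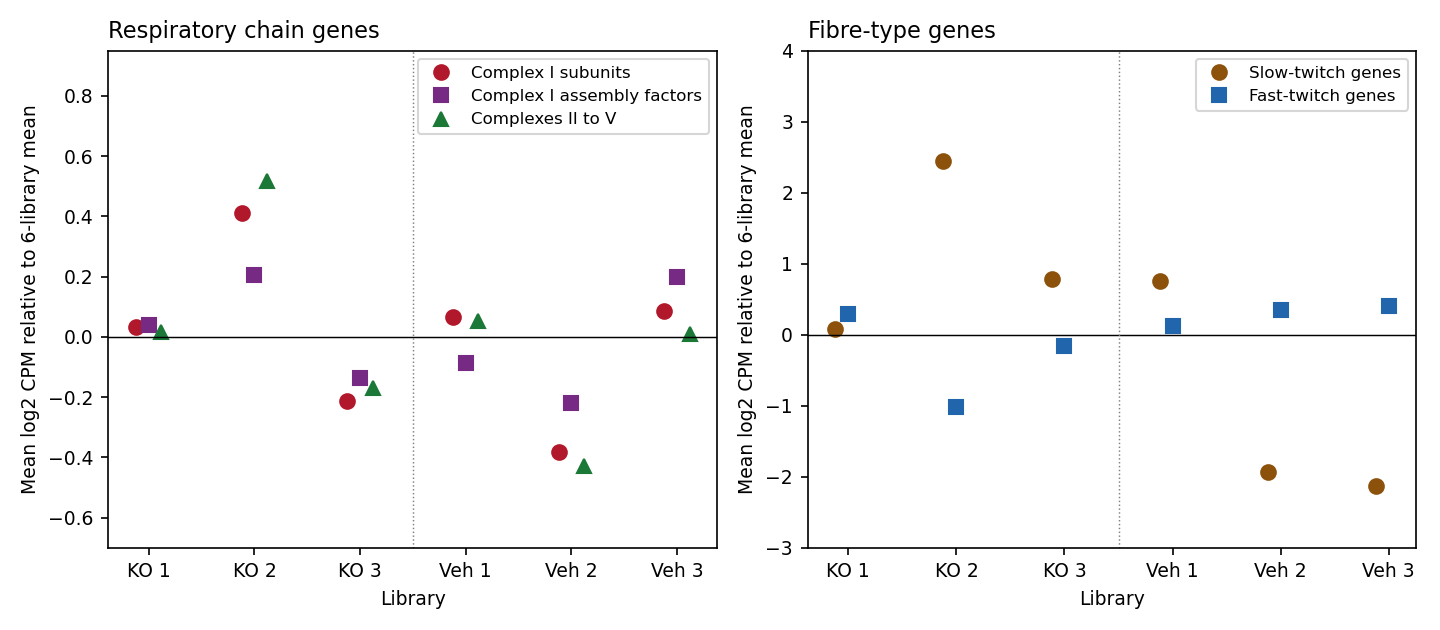
Mean log2 CPM of gene lists in each library, relative to the mean over the 6 libraries, with VDR_KO libraries left of VEH_CONT libraries. Complex I and complexes II to V run together with a peak in VDR_KO replicate 2, and the slow-twitch list has a much wider range.

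The direction of the subunit estimates depended on which libraries were included. Without VDR_KO replicate 2, 14 of 37 subunits had higher estimates and the median log2 fold change was -0.05. Without VEH_CONT replicate 2, 21 of 37 were higher and the median was 0.01. Leaving out both, an alternative chosen after seeing the data, left 1 of 37 higher, Ndufs1 at 0.28, with a median of -0.19. With the mean of the slow-twitch list, itself higher on average in VDR_KO, as a covariate, 4 of 37 were higher and the median was -0.08. The edgeR count of called subunits was 0 in each of these fits. Leaving out any other library left the median between 0.22 and 0.28.

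**Figure D4:**
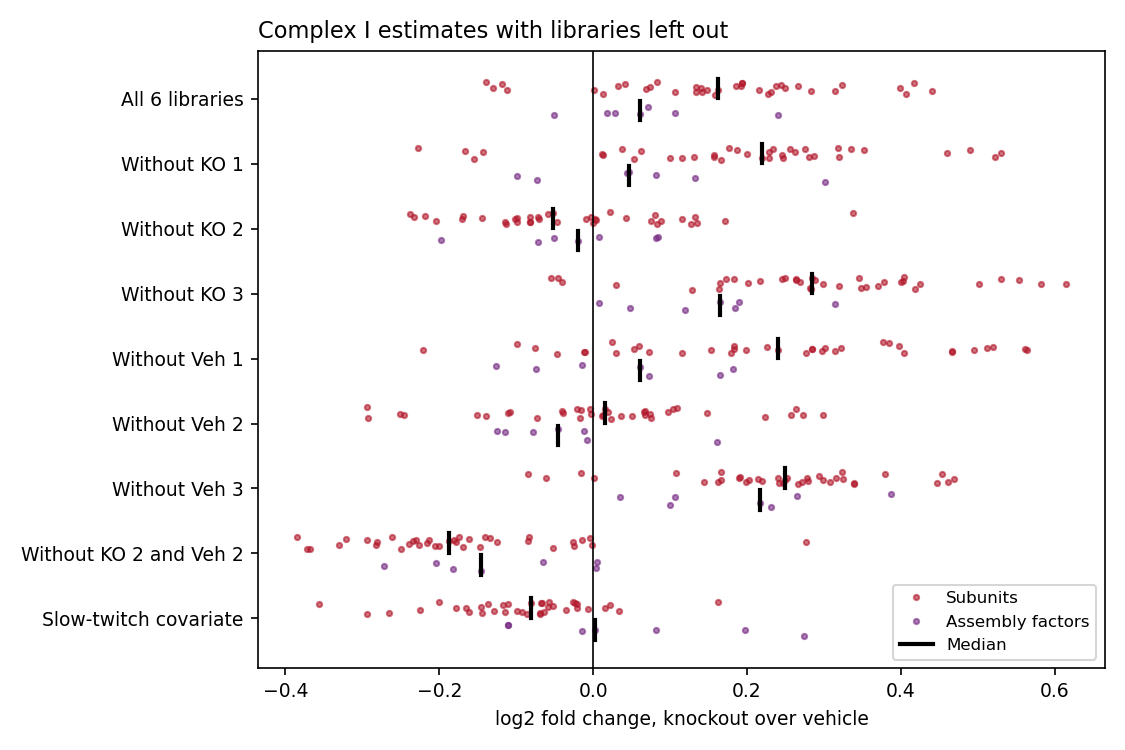
Log2 fold change of VDR_KO over VEH_CONT for the complex I genes with all libraries, with libraries left out, and with the slow-twitch covariate. The subunit median is above 0 with all 6 libraries and below 0 without VDR_KO replicate 2, without both replicates 2, and with the covariate.

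Assembly factors outside the Nduf names and regulators of mitochondrial genes had estimates on both sides of 0. Of 12 other assembly factors, 6 had higher and 6 lower estimates (median log2 fold change 0.02), and edgeR called 0 after adjustment, with 1 under an unadjusted p of 0.05, in the higher direction, as had 4.02% of all genes. The smallest p was that of Atp5sl, which helps to assemble the distal membrane arm, with 38.5, 51.1 and 38.4 CPM in VDR_KO libraries and 37.0, 29.6 and 29.1 CPM in VEH_CONT libraries. Its groups did not overlap (log2 fold change 0.42, SE 0.18; edgeR adjusted p = 0.665). Foxred1, another assembly factor, had 37.4, 34.96 and 34.2 CPM in VDR_KO libraries and 32.5, 24.7 and 29.9 CPM in VEH_CONT libraries, again with no overlap (log2 fold change 0.29, SE 0.16; edgeR adjusted p = 0.717). These 2 of 12 genes had every VDR_KO library above every VEH_CONT library, as had 5.83% of all genes, and the other 10 overlapped between the groups.

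Of 16 regulators of mitochondrial genes, 9 had higher estimates (median log2 fold change 0.05), and edgeR called 0 after adjustment, with 4 under an unadjusted p of 0.05. All 4 had higher estimates and 0 lower, beside 4.02% of all genes with higher and 3.42% with lower estimates at that p. Esrra, a nuclear receptor that acts on genes for oxidative metabolism, had 59.2, 77.9 and 58.6 CPM in VDR_KO libraries, against 58.4, 37.1 and 38.4 CPM in VEH_CONT libraries. The groups did not overlap, although VEH_CONT replicate 1 came close to 2 of the VDR_KO libraries (log2 fold change 0.55, SE 0.22; edgeR adjusted p = 0.645). Ppara, a receptor that controls fatty acid oxidation, had a log2 fold change of 1.01 (SE 0.36; edgeR adjusted p = 0.640), and Esrrb, a relative of Esrra, 1.16 (SE 0.48; edgeR adjusted p = 0.664). The factors of the searched motifs, named after their values were seen, had estimates on both sides of 0. Those below 0 were no larger than about their standard errors. Gabpa, a subunit of GABP, had 34.3, 33.2 and 34.6 CPM in VDR_KO libraries and 29.4, 27.8 and 21.9 CPM in VEH_CONT libraries (log2 fold change 0.37, SE 0.16; edgeR adjusted p = 0.668). Nrf1 had 11.1, 10.9 and 10.98 CPM in VDR_KO libraries, against 12.5, 13.0 and 11.5 CPM in VEH_CONT libraries (log2 fold change -0.16, SE 0.16). Of the 16 regulators, 2 (Esrra and Gabpa) had every VDR_KO library above every VEH_CONT library, beside 5.83% of all genes. For 1 regulator, Nrf1, every VDR_KO library was below every VEH_CONT library, beside 6.48% of all genes. Yy1 had a log2 fold change of -0.04 (SE 0.18), and Ppargc1a, the coactivator PGC-1alpha, 0.06 (SE 0.17).

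Levels between genes were compared per length, as FPKM (reads scaled to the listed gene length and to the library total), averaged over the 6 libraries. Subunits ran from 18.4 FPKM for Ndufab1 to 1774 FPKM for Ndufa4, with a median of 205. Ndufb9, a distal membrane arm subunit, was second with 956 FPKM. Assembly factors ran from 7.40 FPKM for Ndufaf3 to 34.2 FPKM for Ndufaf5, with a median of 15.03, and Ndufaf7 at 9.83 FPKM was the second lowest of the 44. The spread among subunits depends on the length used. The listed lengths were more than 2 times the principal GENCODE transcript for 11 subunits and a little shorter than it for some others, and the annotation behind them is not known to be the same. Ndufb2, for example, has 5628 listed bases and a principal transcript of 455, which puts it at 23.2 FPKM with the listed length and 287 with the principal one, with the doubt about overlapping reads given above. With principal lengths the highest and lowest subunits differed by 21.7 times, and with listed lengths by 96.6 times. Assembly factors took the 7 lowest places with principal lengths, from Ndufaf5 at 52.5 downwards, below the lowest subunit, Ndufab1, at 89.3.

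**Figure D5:**
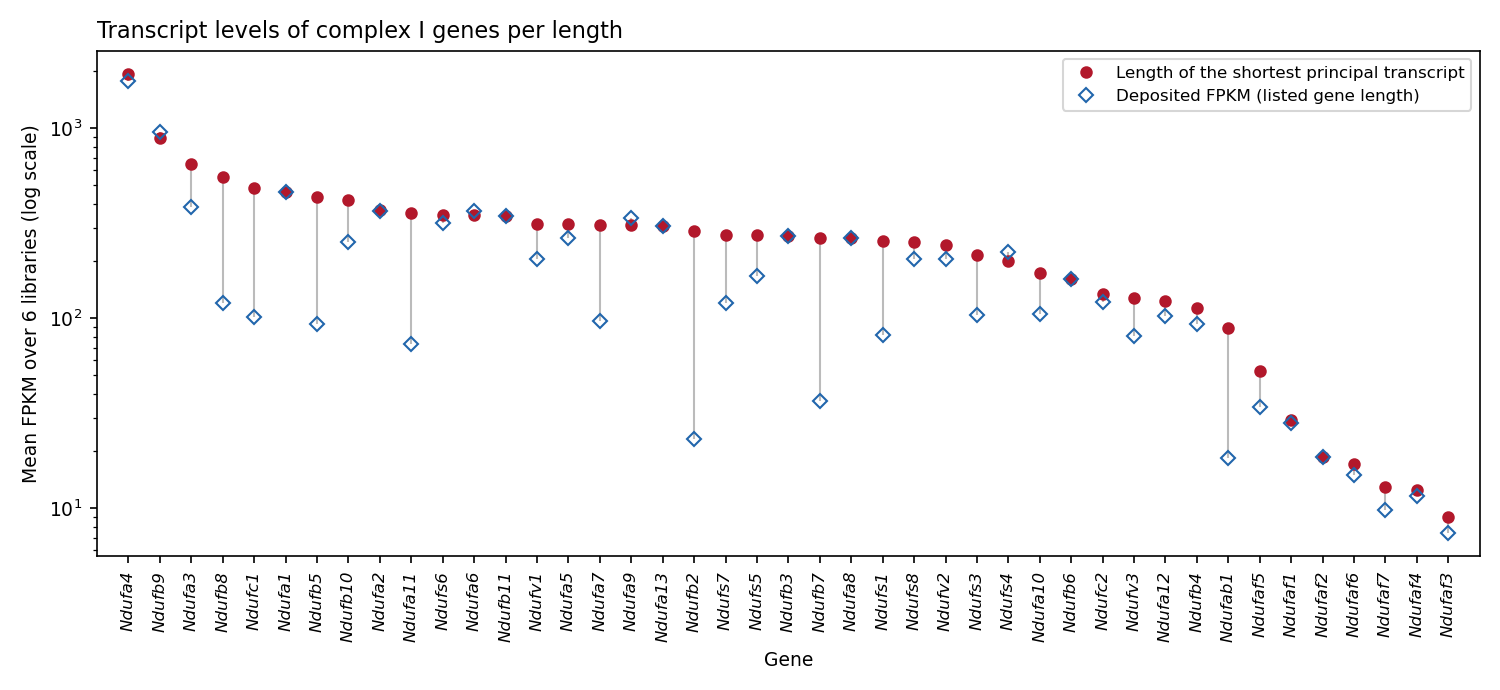
Mean level per length of the complex I genes reported over the 6 libraries (log axis), with the listed gene length and with the principal GENCODE transcript length. The assembly factors lie below all subunits when principal lengths are used.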

How the data were processed

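Poly(A) RNA of gastrocnemius muscle from 6 mice, 3 VDR_KO and 3 VEH_CONT, was sequenced (TruSeq Stranded mRNA, per the labels' protocols). The values deposited are read counts for each gene and library. STAR 2.6.1c, featureCounts (Subread 1.5.1) and bcl2fastq were used with mm10, per the submitters' processing notes. Neither the annotation release nor the strand setting is given in the sources used here. Deposited FPKM values equalled count divided by listed length plus 1 base and by column total. Of the 43346 rows, 19501 were at 0 in every library.

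Counts were fitted over all genes with edgeR 4.0.16 in R 4.3.3 (filterByExpr with minimum count 10 and minimum total 15, TMM factors of 0.912 to 1.13, robust quasi-likelihood test, two-sided), with Benjamini-Hochberg adjustment over the 15583 genes kept. The common biological coefficient of variation over all genes, 0.270, measures the spread between libraries of a group beyond counting error. Each library came from its own mouse, so differences between mice and differences in sample handling are not separated. Each fold change is given as log2 of VDR_KO over VEH_CONT, with standard errors from the F statistic. CPM values use TMM-scaled library sizes, and profiles use log2 CPM with a prior count of 2. The procedure was tested on simulated data. Counting error at the lowest member count, 349 reads, is 5.35%, so the spread between libraries limits precision.

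Principal transcript lengths came from GENCODE M21 (GRCm38, the assembly also called mm10). The members and lists were chosen with earlier results of these data known. The genes named were the 6 subunits of smallest p with higher and those with lower estimates (there were 4), the core subunits, all assembly factors, the 2 highest and 2 lowest members per length, the 2 subunits farthest from and the 2 closest to the subunit profile, Vdr, and up to 3 genes of smallest p from each other list. Ndufs4, Ndufb2, Ndufb4, Ndufab1 and the factors of the motifs were named after their values were seen. The values of 1 gene are not reported here; counts and medians include it. Alternatives were other size factors, DESeq2 1.42.0, limma-voom (limma 3.58.1), limma on log2 of FPKM plus 0.1 or 1, other filters, no robust estimation, an adjusted p of 0.1, a slow-twitch covariate and leaving out libraries.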

Additional observations from a re-analysis of the deposited data

How the results depend on the processing

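Under all 17 alternatives 0 of the 44 complex I genes were called, and 0 at an adjusted p of 0.1; the smallest adjusted p of any member in any alternative was 0.493. Over all genes, edgeR called 0 with all libraries, 4 with DESeq2 size factors, 29 without a low-count filter, 24 without VDR_KO replicate 1 and 6 without VDR_KO replicate 2, and DESeq2 called 109. The subunit median log2 fold change, 0.16, was -0.081 with the slow-twitch covariate, -0.05 without VDR_KO replicate 2 and -0.19 without VDR_KO replicate 2 and VEH_CONT replicate 2, and ran from -0.19 to 0.28 over all fits with libraries left out. The assembly factor median, 0.06, was -0.02 without VDR_KO replicate 2, -0.05 without VEH_CONT replicate 2 and -0.15 without both, and ran from -0.15 to 0.22 over these fits. Fits with libraries left out hold fewer samples; the cause was not tested further. With other size factors, tests and filters, the subunit median was 0.14 to 0.25. Of 748 estimates for single members under the alternatives, 128 had the opposite sign to the estimate with all libraries, and none of these was called. In the 6 fits without 1 library, 13 subunits and 1 assembly factor, Ndufaf4, kept their sign throughout. No paired analysis was possible because replicate numbers only name the samples in accession order. With 3 mice a group, the 95% intervals set how closely each change is known.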

Other observations

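Genes related to complex I by name or role also lay outside the naming rule. Ndufa4l2, a relative of Ndufa4, averaged 6.38 CPM in VDR_KO and 5.05 CPM in VEH_CONT (log2 fold change 0.34, SE 0.33; edgeR adjusted p = 0.840). The assembly factor Ndufaf8, listed under the older name 1810043H04Rik, had 8.87, 12.3 and 7.77 CPM in VDR_KO libraries, against 8.73, 6.19 and 9.10 CPM in VEH_CONT libraries (log2 fold change 0.27, SE 0.24; edgeR adjusted p = 0.825). Its groups overlapped, and VDR_KO replicate 2 and VEH_CONT replicate 2 were again the highest and the lowest library.

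Subunit deviations within a library were also set beside transcript length. Across the 37 subunits, Pearson's r between log2 principal transcript length and deviation was 0.41, -0.37 and 0.52 in VDR_KO replicates 1, 2 and 3, against 0.34, -0.05 and -0.31 in VEH_CONT replicates 1, 2 and 3. These values are descriptions across genes of the same libraries, and genes are not independent replicates. The sign differed within both groups.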
